A study of Mus musculus with 2 samples.

Results

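The probes described here are the 1122 oligonucleotides of a mouse small-RNA array whose identifiers carry the token PST, out of 14400 small-RNA probes (7.79%). They were chosen by identifier alone, as non-control spots named ASMM10SM20PST followed directly by a digit, and each had 1 spot on each array. The other small-RNA probes carry the tokens MIRNA (3487 probes), MIRNASS (2945), TRF (3633) and TRFSS (3213). The sources used here neither explain these tokens nor pair an identifier with an RNA name, so members are given by identifier, and probe sequences were not used.

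The samples were 2 cultures of the mouse microglial cell line BV-2, each hybridised to 1 array of 2 channels. The control culture stayed at 37 °C under 5% CO2. The OGD/R culture was deprived of oxygen and glucose for 2 h, in glucose- and serum-free DMEM under 5% CO2 and 95% N2 at 37 °C, and then returned to regular medium and normal oxygen. Immunoprecipitated RNA (IP, the modified RNA) was labelled with Cy5, and RNA recovered from the supernatant (Sup, the unmodified RNA) with Cy3. The sources used here give neither the modification that the antibody recognised nor the length of the reoxygenation. Each group held 1 array, so no difference has a replicate check and no test was made. Single arrays limit the precision of every value.

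Small RNAs such as microRNAs and tRNA fragments can carry chemically modified nucleosides, and an antibody against such a nucleoside pulls down the molecules that hold it. Here the precipitated and the remaining RNA were read as 2 colours at the same spot, and the balance of the colours is what the IP/Sup ratio measures. Oxygen and glucose deprivation followed by recovery is a culture model of ischemia and reperfusion, to which microglia, the resident immune cells of the brain, respond. Of the 10 microglia and macrophage markers looked for, 1 was on the array, Apoe, which encodes apolipoprotein E, and it was detected in each channel of each array. The oligodendrocyte gene Mbp was at background in Sup and detected in IP, at 474 in control and 380 in OGD/R, and the astrocyte and neuron markers looked for were not on the array.

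Most PST probes were not detected by the scanner's call. A probe counted as detected in a channel when the scanner file marked it as well above background there. In Sup 236 of 1122 (21.0%) were detected in control and 228 (20.3%) in OGD/R. In IP the counts were 337 (30.0%) and 329 (29.3%). In all, 732 (65.2%) were detected in neither channel of either array, against 33.9% of MIRNA, 54.4% of MIRNASS, 31.2% of TRF and 40.6% of TRFSS probes. The other small-RNA probes had the opposite order of channels, with 54.3% (control) and 54.4% (OGD/R) detected in Sup, and 41.0% and 40.8% in IP. Across all probes the lowest detected signal of the control array was 113 in Sup and 181 in IP, and on the OGD/R array 107 and 165. These floors are in dye-normalized units. Among detected PST probes the median factor from background-subtracted to processed signal was 23.0 in Sup and 38.4 in IP in control. In OGD/R it was 22.7 and 36.2. The floors thus do not rank the channels by sensitivity. The negative control spots lay at medians of 28.8 and 31.7 in control, and 0 of 77 were called detected.

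PST probes were more often seen in the immunoprecipitate alone than in the supernatant alone. In control 132 (11.8%) were detected in IP only and 31 (2.76%) in Sup only, a ratio of 4.26. In OGD/R the counts were 131 and 30, a ratio of 4.37. Among the other small RNAs the same ratio was 0.157 in control and 0.174 in OGD/R, since 2.48% and 2.86% of them were seen in IP only and 15.8% and 16.5% in Sup only. Of the 390 members detected somewhere, 296 (75.9%) were in the same state on both arrays, with 99 in IP only and 15 in Sup only, where 79.3% of the other small RNAs detected somewhere kept their state.

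The difference in detection held at like signal. PST probes detected in IP were set beside other small-RNA probes of the same IP signal, in 5 bins. In the dimmest bin, 32.9% of the PST probes were also detected in Sup on the control array, against 84.8% of the others, and in the next 3 bins the shares were 45.0%, 58.9% and 79.7% against 91.8%, 94.8% and 98.3%. In the brightest bin both were 100%. On the OGD/R array the 4 dimmer bins gave 30.3%, 42.3%, 61.3% and 78.7% for PST and 82.6%, 88.8%, 95.5% and 98.2% for the others. Matched on Sup signal instead, PST probes were the more often detected in IP. In the dimmest Sup bin 65.5% of them were, against 26.7% of the others, in control, and 70.7% against 30.4% in OGD/R.

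For members seen in IP only, the ratio of the channels has just a lower bound, taken as the IP signal over the higher of the lowest detected Sup signal and the probe's own Sup signal. In control, 110 of the 132 had a bound of at least 2-fold and 49 of at least 4-fold, with a median of 3.11-fold. In OGD/R these were 111 of 131, 50 and 3.34-fold. The bounds were of like size in the other classes, where the few probes seen in IP only had class medians of 2.33 to 3.23-fold in control and 2.37 to 3.09-fold in OGD/R. Of the 99 members in IP only on both arrays, 12 reached at least 8-fold on both. The highest bound shared by both arrays, in a member picked after its values were seen, belonged to ASMM10SM20PST100022552TV2. Its IP signal reached 1602 on the control array and 1712 on the OGD/R array, and its Sup signal was 74.7 and 73.2, not well above background. The IP signal was thus at least 14.2-fold higher than Sup in control and at least 16.1-fold higher in OGD/R.

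A ratio could be measured for the 182 members (16.2%) that were detected in each of the 4 readings, that is in Sup and IP of either array. Members seen in 1 channel only are absent from it, so these 182 do not stand for all 1122. Their IP share, the IP signal over the sum of both dye-normalized signals, had a median of 65.3% in control and 65.8% in OGD/R. The other small RNAs that passed the same filter lay at 48.9% and 49.3%. By class the medians were 48.3% and 49.2% for MIRNA, 50.4% and 50.6% for MIRNASS, 45.9% and 46.2% for TRF and 54.3% and 53.7% for TRFSS. Dye normalization sets the overall balance of the channels, so a share has meaning against other probes of the array and is not the fraction of molecules precipitated.

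In log2 terms the PST median of IP/Sup lay at 0.91 on the control array, with a 95% order-statistic interval over probes of 0.50 to 1.21, and at 0.94 on the OGD/R array, with an interval of 0.61 to 1.25. Such intervals cover the scatter between probes and hold no error between cultures. The PST median exceeded that of all small-RNA probes by 0.96 in control (1.94-fold) and 0.97 in OGD/R (1.96-fold). Before dye normalization the PST median was -0.24 in control against -1.0 for all small RNAs, and -0.18 against -0.94 in OGD/R. The excess was there 0.76 in control and 0.75 in OGD/R. Normexp background correction starts from signals before dye normalization and adds an offset of 50 that draws ratios towards 0. In control, detected PST probes had median processed signals of 375 in Sup and 604 in IP, with the median factors of 23.0 and 38.4 given above. For a typical detected member the offset was thus the larger term. With normexp the excess was 0.28 on each array, a size lowered by the offset.

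The members were spread widely around that median. Their shares ran from 13.5% to 96.0% in control and from 15.9% to 97.1% in OGD/R. In control 124 of 182 (68.1%) had more IP than Sup signal, against 47.6% of the other small RNAs, and in OGD/R 122 (67.0%) against 48.5%. A share above 80% was found for 39 members (21.4%) in control and 44 (24.2%) in OGD/R, against 5.03% and 5.69% of the others. Among the other classes MIRNASS came nearest, with 10.0% and 11.3%. At the low end PST did not stand out in the same way, with 9 members (4.95%) under 20% on each array against 6.41% and 7.22%. On both arrays 117 members lay above 50% and 53 below, 33 were above 80% and 7 below 20%. A high IP share was thus more frequent among PST probes, and a minority had a low one. Across the 182 probes the ratios of the 2 arrays correlated with Pearson's r of 0.96 and Spearman's rho of 0.96, a description across probes that share a slide and a scan.

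IP/Sup can run with signal, so the ratio was also compared within 10 bins of the mean log2 signal of both channels, each holding the same number of other small-RNA probes. Only bins with at least 20 PST probes were summarised, which left 4 bins and 85 members on each array. Weighted by members, PST ratios exceeded those of other small RNAs by 1.19 in control (2.29-fold), from 0.20 to 2.17 over the bins, and by 0.98 in OGD/R (1.97-fold), from 0.12 to 1.48. Over all 10 bins, thin ones included, the PST median was the higher in 10 bins in control and in 9 in OGD/R, where 1 bin of 15 members lay at -0.33. Of the 85 members, 61 (71.8%) lay above the median of the others in their bin in control and 58 (68.2%) in OGD/R.

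The excess depended on the class PST was set against. At like signal it was 1.25 over MIRNA, 1.13 over MIRNASS and 1.40 over TRF in control, and 1.00, 0.85 and 1.16 in OGD/R, above 0 in each of the 4 bins. Over TRFSS, the other class with a higher IP balance, it was 0.72 in control and 0.42 in OGD/R, again over bins that differ between the arrays. There 3 of 4 bins were above 0, and the brightest gave -0.62 in control and -1.03 in OGD/R. The excess was present in each of 4 equal parts of the array surface, at 0.93, 0.36, 1.24 and 0.71 on the control array and 1.15, 0.41, 1.15 and 0.97 in OGD/R, computed in 5 bins with at least 5 members. The second of these gave the lowest value on both arrays.

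In the processed signals the IP balance of PST probes fell off at high signal. The 182 members were split by mean signal into 3 sets, the dimmest 61, the middle 60 and the brightest 61. The median log2 IP/Sup in control was 1.06 in the dimmest set, 1.29 in the middle and -0.04 in the brightest. The other small RNAs over the same ranges of signal lay at 0.22, -0.15 and -0.32. In OGD/R the PST medians were 0.94, 1.63 and 0.01 against 0.28, -0.12 and -0.31. The excess was thus largest in the middle set on both arrays and smallest in the brightest. Part of the signal range is set by the filter, because a dim member must clear the Sup floor to have a ratio at all. The split was made in the processed signals only. Ratios of the brightest members, given below, changed strongly without dye normalization, so the fall at high signal may depend on it.

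A few very bright members carried most of the class's signal in Sup, and 4 of the 5 brightest leaned to the supernatant on both arrays in the processed signals. For 3 of them this held under every background correction and dye normalization tried. In control the 5 brightest held 76.6% of all PST signal in Sup and 38.6% in IP, and in OGD/R 74.1% and 38.7%. PST as a class made up 6.51% of small-RNA signal in Sup and 4.97% in IP in control. Its members other than the 5 brightest held 1.52% and 3.05% of that same small-RNA signal. The order of the channels for the summed signal thus turned when those 5 probes, picked for brightness, were left out of the class. In OGD/R the class held 5.77% in Sup and 4.83% in IP, and its members other than those 5 held 1.496% and 2.96%.

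The brightest member was ASMM10SM20PST100003843TV2, which also had the lowest ratio in the mean of the arrays. Its Sup signal went from 1230714 (control) to 911815 (OGD/R), and its IP signal from 192526 to 199353, so its IP share was 13.5% and 17.9%. Relative to the array median its log2 ratio was -2.63 and -2.17, and -0.58 and -0.36 with plain background subtraction and no dye normalization. The next brightest, ASMM10SM20PST100003975TV2, had Sup signals of 679217 and 347525 and IP signals of 296314 and 209532, with shares of 30.4% and 37.6%. Its ratio relative to the array median changed sign with the background correction and dye normalization. It was -1.15 in control and -0.71 in OGD/R as deposited, and 0.89 and 0.83 with plain subtraction. ASMM10SM20PST100028522TV2 had shares of 16.8% and 21.1%, and ASMM10SM20PST100036229TV2 of 19.5% and 27.2%. ASMM10SM20PST100028381TV2 was close to even, at 46.6% and 55.0%, and in control its ratio to the array median went from -0.15 to 0.86 with plain subtraction. In the processed signals all 5 had a higher IP share on the OGD/R array, with centred ratio differences between 0.38 and 0.60. The scanner's error of the difference was 0.29 to 0.43. This common direction did not hold under all processing. With normexp and loess, ASMM10SM20PST100003843TV2 went from -0.81 in control to -0.87 in OGD/R relative to the array median. ASMM10SM20PST100003975TV2 went from 0.64 to 0.31 and ASMM10SM20PST100028381TV2 from 0.52 to 0.32. ASMM10SM20PST100028522TV2 went from -0.94 to -0.93 and ASMM10SM20PST100036229TV2 from -1.46 to -1.35.

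At the other end, the 5 members with the highest mean ratio each had a share above 93% on both arrays. The highest mean ratio was that of ASMM10SM20PST100009934TV2, with Sup signals of 172 in control and 139 in OGD/R and IP signals of 3591 and 4674. Its share was 95.4% and 97.1%, equal to ratios of 20.9-fold and 33.7-fold. ASMM10SM20PST100000199TV2 had Sup signals of 194 and 209, IP signals of 4662 and 5496 and shares of 96.0% and 96.3%. ASMM10SM20PST100013866TV2 gave 283 and 280 in Sup and 6277 and 6567 in IP, with shares of 95.7% and 95.9%. ASMM10SM20PST100007932TV2 had shares of 94.3% and 96.7%, and ASMM10SM20PST100003927TV2 of 93.7% and 95.1%. Their Sup signals lay between 134 and 283, close to the detection floor, so the size of these ratios rests on dim Sup values, and the scanner's own error of the log2 ratio was 0.43 to 0.53 for them.

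The lowest ratios did not belong to bright members alone. ASMM10SM20PST100018674TV2 had Sup signals of 1137 and 1107 and IP signals of 256 and 210, with shares of 18.4% and 15.9%. ASMM10SM20PST100030216TV2 had Sup signals of 1227 and 1078 and IP signals of 240 and 241, with shares of 16.4% and 18.3%. The IP signals of both lay close to the lowest detected IP signals, 181 in control and 165 in OGD/R, so these ratios rest on dim IP values. Relative to the array median in control they were -2.11 and -2.31, and -0.57 and -0.59 with normexp. ASMM10SM20PST100001863TV2, at 10995 and 10664 in Sup, had shares of 17.7% and 19.4%, and ASMM10SM20PST100009956TV2, at 6108 and 6684, had 19.0% and 18.2%. These 4 differed between the arrays by at most 0.27 in the centred log2 ratio, less than the scanner's error of the difference, which was 0.40 to 0.44.

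Between the conditions the IP balance of the class moved little relative to all probes. The median difference of the centred log2 IP/Sup, OGD/R minus control, was -0.02 over the 182 members (interval over probes -0.09 to 0.07), with 89 of them above 0, against 0.01 over all probes tested. The ratio was at least 2-fold higher in OGD/R for 2 members (1.1%), where 1.04% of all 4909 small-RNA and gene probes tested were, and at least 2-fold lower for 1 (0.549%), where 1.12% were. At 2-fold and with this filter, the members' counts were near the background. With centring on the spike-in probes the PST median was -0.42 and that of all probes -0.40. Under that centring 1 member (0.549%) was higher, where 0.122% of all probes were. There 18 members (9.89%) were lower, where 6.95% of all probes were. The scanner's error of the difference had a median of 0.39 for PST probes and 0.36 for all small RNAs, and 13 members (7.14%) differed by more than 2 such errors, against 6.79% of all small RNAs. PST differences were somewhat more spread, with an SD over probes of 0.43 against 0.41 for all probes tested.

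The 2 members with a higher ratio owed it to different channels. ASMM10SM20PST100034240TV2 had Sup signals of 2945 in control and 779 in OGD/R and IP signals of 2053 and 1606. Its share went from 41.1% to 67.3%, and its centred ratio was 1.54 higher (2.91-fold) with a scanner error of 0.31. ASMM10SM20PST100026548TV2 had Sup signals of 329 and 312 and IP signals of 230 and 477, with shares of 41.2% and 60.5% and a difference of 1.103 (2.15-fold), scanner error 0.42. The first followed its supernatant and the second its immunoprecipitate. The member with the lower ratio, ASMM10SM20PST100046006TV2, had Sup signals of 916 and 2553 and IP signals of 711 and 840. Its share went from 43.7% to 24.8%, and its ratio fell by 1.26, with a scanner error of 0.34. The next largest fall was -0.85, short of 2-fold. With normexp none of the 3 reached 2-fold, at 0.91, 0.012 and -0.61. For ASMM10SM20PST100026548TV2 the difference was 0.32 with plain subtraction and 0.70 with spike-in centring. For ASMM10SM20PST100046006TV2 it was -0.62 with plain subtraction.

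Signals of the single channels, scaled by the 75th percentile, also moved little in the median. The Sup difference was -0.05 for PST and -0.06 for all probes tested, the IP difference -0.09 against -0.02, and that of the total signal -0.08 against -0.04. The Sup median turned to 0.24 and the total median to 0.36 with scaling on the spike-in probes, where all probes lay at 0.24 and 0.40, and the IP median to 0.0055 in the authors' deposited table, where all probes lay at 0.04. The total was at least 2-fold higher for 1 member (0.549%), against 0.733% of all probes tested, and at least 2-fold lower for 4 (2.20%), against 0.794%. In Sup alone 1 member was higher (background 1.02%) and 9 (4.95%) were lower (background 2.08%). All 9 also had an IP difference below 0, and 8 of them had a centred ratio difference above 0. Picking members on a fall in Sup, the lower term of the ratio, favours a higher ratio, so that count is no separate result. It was not computed for other probes picked in the same way. In IP alone 1 was higher (background 0.815%) and 3 (1.65%) were lower (background 0.713%). The counts of lower members rest on few probes of single arrays. With spike-in scaling 0 members had a total at least 2-fold lower, where 0.122% of all probes did.

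The lower totals lay mainly among bright members. Among the brightest 61 of the 182, the total signal differed by a median of -0.26, with 40 members below 0, while the other small RNAs in the same range of signal differed by -0.05, with 56.5% below 0. In that set the Sup difference was -0.29 and the IP difference -0.15. The middle and dimmest sets lay at -0.08 and 0.01 in total signal, against -0.02 and -0.03 for the others. The largest fall was that of ASMM10SM20PST100020723TV2, from 27465 to 7463 in Sup and from 30723 to 14010 in IP. Its scaled total fell by 1.36 on the log2 scale, a 2.57-fold lower level, while its share went from 52.8% to 65.2%. With spike-in scaling its total difference was -0.92, short of 2-fold. The member with the largest rise in total, by 1.14, was ASMM10SM20PST100046006TV2, through its Sup signal.

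The authors' deposited table of log2 values lists 347 of the 1122 PST probes (30.9%). It holds all 182 members with a measured ratio and 149 that were detected in IP only on at least 1 array. A column differs from the processed signal on the log2 scale by a fixed amount, to within 0.001 for each of 5702 probes. Over its 347 members the PST excess in log2 IP/Sup was 1.67 for the control array and 1.73 for the OGD/R array, larger than over the 182, and it includes members whose Sup signal was at background.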

How the data were processed

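Per the file headers, the deposited scanner files hold fluorescence intensity per spot and channel that Agilent Feature Extraction 11.0.1.1 had background-subtracted, detrended and dye-normalized (linear and lowess). The authors' deposited table gives log2 values, with no statement, in the sources used here, of how its probes were chosen. Deposited log10 ratios and their errors, per the file headers, served only for the scanner's error of a ratio.

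Spots marked as outliers on an array were left out there, among them 0 PST spots. There were 0 saturated spots. The arrays share 1 slide and 1 scan. Ratios (IP over Sup) and differences were computed over probes well above background in each channel of each array. Ratio differences were centred on the array median over small-RNA and gene probes, and channels were scaled by their 75th percentile over the same probes. The threshold was 2-fold, with no p-value. Named probes were the 5 brightest, the 5 highest and 5 lowest mean ratios, and the largest differences of the ratio (2 each way) and of the total (1 each way). One difference in ratio short of 2-fold is given without its identifier. The members, lists and alternatives were chosen with earlier results of these data known. The computation was tested on simulated data. Python with pandas 2.3.3, numpy 2.4.6 and scipy 1.17.1 was used, and R 4.3.3 with limma 3.58.1 for normexp (offset 50) and loess, run on the uncorrected spot signals.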

Additional observations from a re-analysis of the deposited data

Results flagged for a closer look

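Relative to the array's small-RNA median, the log2 IP/Sup of 2 PST probes lay below 0 in control and above 0 in OGD/R by more than the scanner's error on both arrays. ASMM10SM20PST100034240TV2 was at -0.48 in control and 1.07 in OGD/R, and the centred difference was 1.54. With normexp it was at -0.53 and 0.38, still on opposite sides. ASMM10SM20PST100026548TV2 was at -0.47 and 0.64, with a centred difference of 1.103. With normexp it was at 0.10 and 0.11, on the same side, and the difference was 0.012. The normexp offset draws dim ratios towards 0, so this is no check on that member. With plain subtraction, which has no offset, ASMM10SM20PST100026548TV2 was at -0.22 and 0.10. With 1 array per group neither difference was tested.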

How the results depend on the processing

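The PST excess in IP/Sup was above 0 on each array under every alternative run, but its size was not stable. The filter of at least 1 detected channel and the authors' table add PST probes seen in IP alone. In control 132 PST probes were in IP only and 31 in Sup only, against 329 and 2099 of the other small RNAs. A larger excess under these looser choices follows from what they admit, so they are no check on it. The median excess over all small RNAs was 0.28 in both control and OGD/R with normexp, whose offset lowers it, and 0.24 and 0.27 when loess was added. With plain subtraction, which has no offset, the excess was 0.76 and 0.75. It was 0.26 and 0.27 with no filter, 1.85 and 2.07 with at least 1 detected channel, and 1.67 and 1.73 in the authors' table. At like signal in control it was 0.45 with normexp, 0.47 with loess added and 0.63 in bins of Sup signal, and within the second of 4 parts of the array 0.36 in control and 0.41 in OGD/R. Taking all 10 bins gave 0.98 in control and 0.88 in OGD/R, a setting chosen after seeing the data. With 20 bins no bin held enough PST probes, so no value was had. Above the 95th percentile of the negative controls, 543 and 702 of 1122 PST probes counted as detected in Sup and IP of the control array. On the OGD/R array 488 and 656 did. By that looser rule most PST probes were thus detected in IP. The same count was not made for the other small RNAs.

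For OGD/R minus control, the median ratio difference was -0.42 with centring on spike-in probes (all probes -0.40). The Sup median was 0.037 with normexp, 0.069 with plain subtraction and 0.24 with spike-in scaling. The IP median turned to 0.0066 with no filter and 0.0055 in the authors' table, and was -0.0011 with at least 1 channel, -0.018 with spike-in scaling and -0.19 unscaled. The total median turned to 0.36 with spike-in scaling, and was -0.0094 with no filter and -0.16 unscaled. Members with a higher and a lower ratio numbered 0 and 0 with normexp, 25 and 18 with at least 1 channel, 92 and 82 with no filter, 25 and 21 in the authors' table, 1 and 18 with spike-in centring, 20 and 18 at 1.5-fold and 0 and 0 at 3-fold. With normexp and loess 0 were higher (all 0.0815%), and with plain subtraction 0 were lower (all 1.08%). Members with a higher and a lower total numbered 0 (all 0.163%) and 1 (0.549%, all 0.224%) with normexp. With no filter they were 26 (2.32%, all 2.38%) and 38 (3.39%, all 2.15%). In the authors' table they were 3 (0.865%, all 1.09%) and 14 (4.03%, all 1.46%). With spike-in scaling they were 6 (3.30%, all 6.13%) and 0 (all 0.122%). At 1.5-fold they were 5 (2.75%, all 5.52%) and 15 (8.24%, all 4.42%), and at 3-fold 0 and 0. With plain subtraction 2 were lower (1.1%, all 0.611%), and unscaled 7 (3.85%, all 1.12%). Of the named members, ASMM10SM20PST100003975TV2 changed the sign of its centred ratio on both arrays, to 0.097 in control and 0.071 in OGD/R with normexp, 0.89 and 0.83 with plain subtraction, and 0.64 and 0.31 with normexp and loess. In control 3 more named members crossed 0, namely ASMM10SM20PST100028381TV2 (-0.15, then 0.072 with normexp, 0.86 with plain subtraction and 0.52 with loess added), ASMM10SM20PST100026548TV2 (-0.47, then 0.10 with normexp) and ASMM10SM20PST100020723TV2 (0.21, then -0.29 with normexp). The looser filters admit members near background by construction, and the cause of the other shifts was not tested. No paired analysis was possible because each group had 1 array. Leaving out a replicate was not possible for the same reason, and dim Sup signals limit the highest ratios.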
